A study of Mus musculus with 14 samples.

Results

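The complement genes C1qa, C1qb, C1qc, C1ra, C1s1, C4b, C3, Cfb, and C3ar1 were examined in CT26 tumors treated with anti-PD-1 or control IgG. They were listed by name, 8 genes of complement components and 1 of a complement receptor, and found by gene symbol, 9 of the 53801 mouse genes with values in each tumor. All 9 passed the filter on low counts that left 16287 genes for testing. CT26 is a Balb/c mouse line of colon carcinoma cells. The study labelled CT26 cells with DNA barcodes and placed them subcutaneously in both flanks of wild-type female Balb/c mice aged 6 to 8 weeks. Control IgG (clone 2A3) or anti-PD-1 (clone 1A12) was injected intraperitoneally from day 7, every 3 days, 5 times, and tumors were taken 3 days after the final injection. RNA-seq of whole tumors covered 14 tumors of 11 mice. Control IgG had been given to 5 tumors (4 mice), and of the tumors given anti-PD-1 the study called 5 responders (4 mice) and 4 non-responders (3 mice). The study assigned responder and non-responder from tumor size at the end of treatment, so that tumor size and group cannot be told apart here. The tumors are named by mouse number and flank (L or R), and mice 14, 30, and 33 gave a tumor from each flank.

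Complement is a set of plasma and tissue proteins that mark surfaces for uptake or lysis. C1q, built from the chains encoded by C1qa, C1qb, and C1qc, recognizes antibody or other ligands, and the proteases C1r and C1s that it carries cleave C4 and C2. The resulting convertase cleaves C3, factor B (Cfb) forms the convertase of the alternative pathway on deposited C3b, and the released C3a fragment acts through the receptor encoded by C3ar1. In tissues, C1q is made mainly by macrophages and dendritic cells, while C1r, C1s, C3, C4, and factor B are made by the liver and also by fibroblasts, endothelium, and other cells under inflammatory cytokines.

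Responders exceeded non-responders in C1ra, C1s1, C4b, C3, and Cfb by 2.06-fold to 3.68-fold, while C1qa, C1qb, C1qc, and C3ar1 differed by 1.1-fold to 1.2-fold and did not pass the test. With edgeR's quasi-likelihood test and an adjusted p under 0.05, 5 of 9 genes were higher and 0 lower in responders than in non-responders, where 5.08% of all genes tested were higher and 4.82% lower. The same 5 genes had no overlap between the groups in CPM (counts scaled to a common library size by total and TMM factor), a pattern that 6.8% of all genes had in this direction and 6.04% in the other. The median log2 fold change was 1.04 over the 9 genes and 0.006 over all genes tested. The 9 genes were chosen with earlier results of these data known, so these counts and medians are descriptions and do not test enrichment. Against control IgG tumors, 6 of 9 genes were higher in responders and 0 lower (those 5 and C3ar1), where 7.88% of all genes were higher and 5.3% lower. Of these 6 genes, all but C3ar1 had no overlap, a pattern of 8.34% of all genes in this direction. Both comparisons use the same 5 responders and are not independent. Between non-responders and control IgG tumors, 0 of 9 genes passed the test (median log2 fold change 0.04), as did 0% of all genes. In this last comparison edgeR gave 758 genes an unadjusted p under 0.05, and DESeq2 called 16 genes, among them 0 of the 9. In bulk tumors, more cells of a type and more RNA per cell cannot be told apart.

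**Figure D1:**
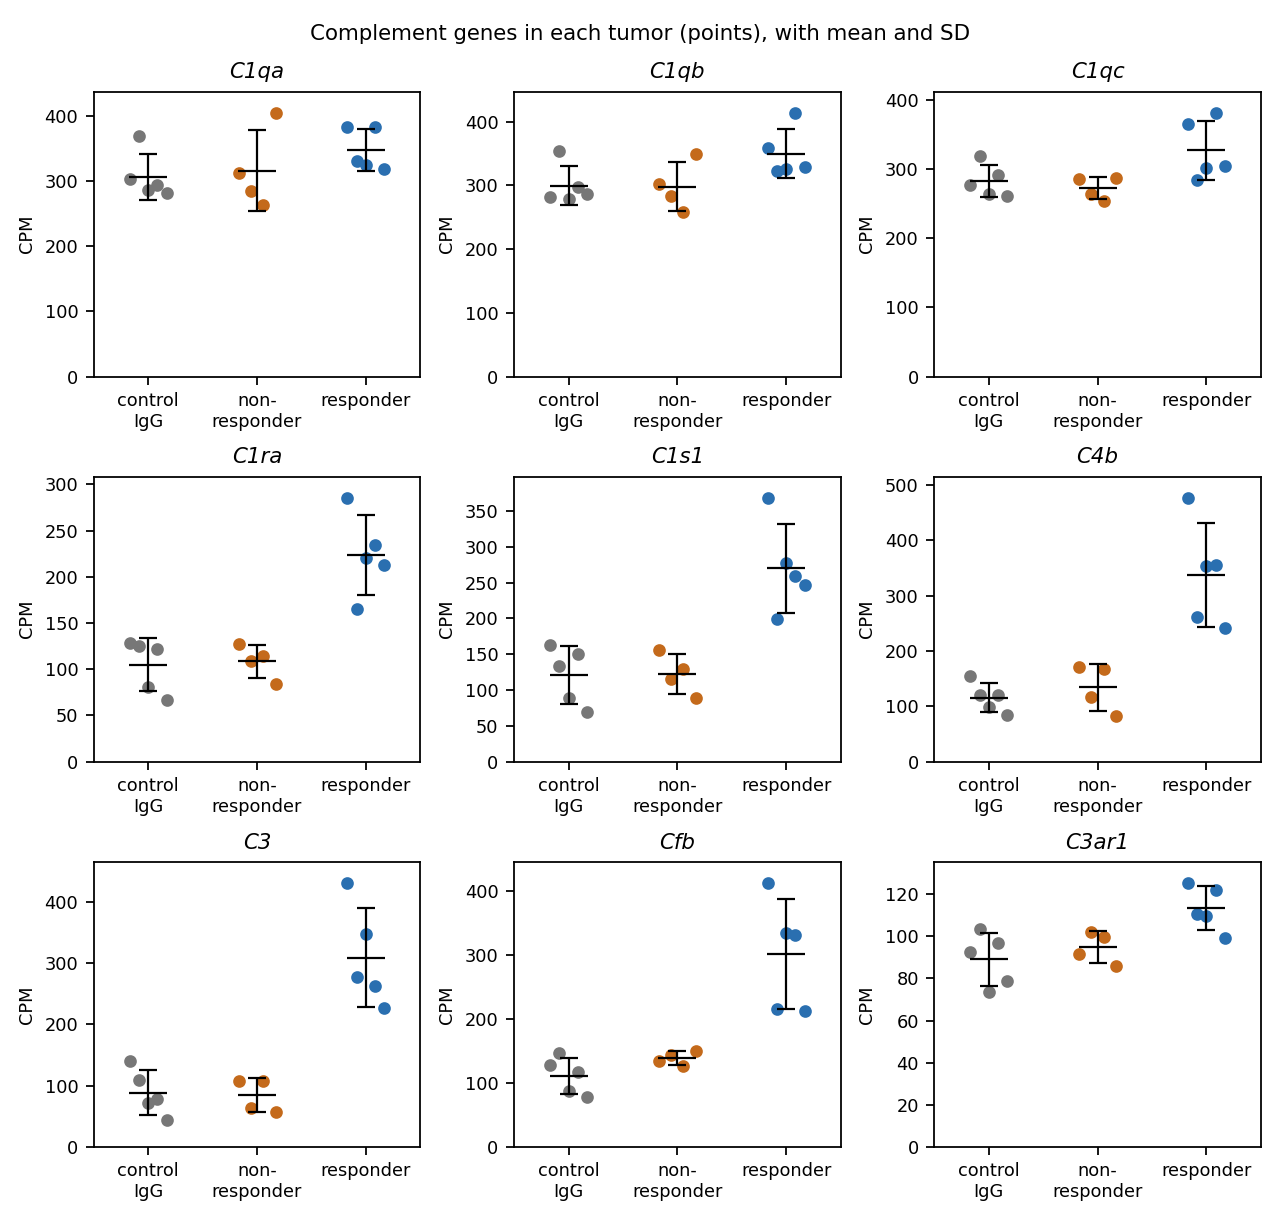
Level of each of the 9 complement genes (CPM, vertical axis from 0) in control IgG tumors (gray), non-responders (orange), and responders (blue), where points are tumors and bars are the mean and SD (n = 5, 4, and 5). In CPM, the responders sit above every other tumor for C1ra, C1s1, C4b, C3, and Cfb, and overlap with other tumors for the C1q chains and C3ar1. In TPM, not drawn here, they lay above every other tumor for all 9 genes, narrowly for C1qa (516.5 against 511.6) and C3ar1 (30.7 against 29.5). The share of all genes with this pattern in TPM was not counted. On log2(TPM + 1) the median of all genes was itself shifted by 0.169 between responders and non-responders.

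Total expected counts ranged from 33237744 to 48481461 per tumor, and each of the 9 genes had at least 1792 counts in every tumor, so that the spread between tumors and not the counting error limited the comparisons. Estimated fragment length was 269.5 to 277.0 in responders, 268.7 to 277.7 in control IgG tumors, and 277.5 to 287.8 in non-responders, the longest being tumor 33R. With an offset that removed the trend with gene length, the same 5 genes remained higher in responders than in non-responders, with log2 fold changes of 0.97 for C1ra, 1.09 for C1s1, 1.17 for C4b, 1.73 for C3, and 1.07 for Cfb.

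Levels of different genes were compared in TPM, transcript abundance per length scaled to a common total. The C1q chains were the most abundant of the 9, with means over the 14 tumors of 494.0 TPM for C1qa, 456.9 TPM for C1qb, and 374.0 TPM for C1qc, and C1qa stood at the 98.3 percentile of all genes tested. Cfb (94.3 TPM), C1s1 (88.3 TPM), C1ra (65.8 TPM), C4b (50.0 TPM), C3 (43.5 TPM), and C3ar1 (29.1 TPM, the 73.5 percentile) followed. C1qc was above Cfb in 14 of 14 tumors, C1s1 above C1ra in 14, and C1ra above C4b in 14. Neighbors that the tumors did not separate were Cfb and C1s1, where Cfb was higher in 8 of 14 tumors, and C3 and C3ar1, where C3 was higher in 6 of 14. C3 was last of the 9 in control IgG tumors and in non-responders (place 9 by mean TPM) and stood at place 8 in responders, above C3ar1.

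The C1q chains are encoded side by side on the minus strand of chromosome 4 (mm10), C1qb (ENSMUSG00000036905) at chr4:136880129-136886187, C1qc (ENSMUSG00000036896) at chr4:136889804-136893065, and C1qa (ENSMUSG00000036887) at chr4:136895917-136898803. C1qa, the A chain, had 303.2, 368.6, 285.8, 294.2, and 282.0 CPM in control IgG tumors 14L, 14R, 16R, 17R, and 20R. It had 383.4, 331.0, 324.1, 382.3, and 318.6 CPM in responders 24L, 26R, 30L, 30R, and 35L, and 311.8, 284.2, 263.9, and 404.8 CPM in non-responders 29L, 32R, 33L, and 33R. The groups overlapped, since the single highest value of the 14 belonged to the non-responder 33R. The log2 fold change between responders and non-responders was 0.14 (SE 0.12, 95% interval -0.12 to 0.40, adjusted p = 0.493 by edgeR).

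C1qb, the B chain, had 281.5, 353.5, 279.5, 297.9, and 287.1 CPM in control IgG tumors, 359.3, 322.4, 325.3, 414.0, and 329.6 CPM in responders, and 302.0, 283.5, 257.7, and 349.9 CPM in non-responders, in the same order of tumors. The highest value was now in responder 30R, and 33R was again the highest of the non-responders. The log2 fold change was 0.23 (SE 0.11, adjusted p = 0.176 by edgeR). C1qc, the C chain, had 277.3, 318.6, 263.7, 290.9, and 261.1 CPM in control IgG tumors, 364.5, 283.9, 301.3, 381.0, and 303.6 CPM in responders, and 284.7, 263.6, 253.4, and 287.5 CPM in non-responders. Here only the responder 26R lay within the range of the non-responders. The log2 fold change of C1qc was 0.26 (SE 0.10, 95% interval 0.05 to 0.47, adjusted p = 0.0972 by edgeR). Against control IgG tumors the log2 fold changes were 0.18 for C1qa (adjusted p = 0.335), 0.22 for C1qb (adjusted p = 0.163), and 0.21 for C1qc (adjusted p = 0.147), all by edgeR. Without the non-responder 33R, the log2 fold change against non-responders was 0.30 for C1qa (adjusted p = 0.114 by edgeR), 0.33 for C1qb, and 0.31 for C1qc, and none passed.

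Whether the C1q chains passed depended on the scale, on the test, and on how the tumors of a mouse were handled. On the log2(TPM + 1) scale with limma, the log2 fold change between responders and non-responders was 0.40 for C1qa (adjusted p = 0.0178), 0.48 for C1qb (adjusted p = 0.0083), and 0.50 for C1qc (adjusted p = 0.0146). On that scale the median of all genes shifted by 0.169, and relative to it the chains differed by 0.23, 0.31, and 0.33. With the gene length offset C1qb (0.36, adjusted p = 0.0189) and C1qc (0.35, adjusted p = 0.0281) passed, and C1qa (0.28, adjusted p = 0.0544) did not, and C1qc passed with limma-voom (adjusted p = 0.0475). Against control IgG tumors, C1qa passed on log2(TPM + 1) (0.32, adjusted p = 0.0332), and C1qb passed with 1 library per mouse (adjusted p = 0.0439), on log2(TPM + 1) (adjusted p = 0.02), and with the length offset (adjusted p = 0.0369). Tumor 33R, which had the longest fragments, is the highest for C1qa in CPM (404.8) but not in TPM, where its 456.7 lies below every responder (516.5 to 669.8). In TPM the lowest responder exceeded the highest other tumor for C1qa (516.5 against 511.6) and C1qb (487.8 against 461.9). The same held for C1qc (377.3 against 367.9) and C3ar1 (30.7 against 29.5). Whether groups overlapped for these genes thus depended on the unit, and the share of all genes without overlap in TPM was not counted.

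C1r and C1s are the paired proteases of the C1 complex, encoded in a cluster on chromosome 6 with C1ra (ENSMUSG00000055172) at chr6:124512405-124523443 on the plus strand and C1s1 (ENSMUSG00000038521) at chr6:124530345-124542359 on the minus strand. C1ra had 128.1, 125.4, 80.8, 122.4, and 66.7 CPM in control IgG tumors, 285.4, 165.0, 220.5, 233.9, and 212.4 CPM in responders, and 127.1, 108.9, 114.1, and 83.9 CPM in non-responders. The lowest responder, 26R, stood above every tumor of the other groups, and 24L was the highest. The log2 fold change was 1.04 against non-responders (SE 0.21, adjusted p = 0.0114) and 1.09 against control IgG tumors (SE 0.19, adjusted p = 0.00271), both by edgeR.

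C1s1 followed the same order of tumors within the responders, with 368.2 CPM in 24L, 278.0 CPM in 30L, 259.0 CPM in 30R, 247.0 CPM in 35L, and 198.9 CPM in 26R, except that 30R led 30L for C1ra. Control IgG tumors had 163.0, 133.5, 88.2, 150.2, and 69.6 CPM, and non-responders had 155.4, 115.4, 129.2, and 88.8 CPM, without overlap with the responders. The log2 fold change was 1.14 against non-responders (SE 0.25, adjusted p = 0.0154) and 1.16 against control IgG tumors (SE 0.23, adjusted p = 0.00537), both by edgeR. In the mouse each protease has a second gene nearby, C1rb at chr6:124570294-124581171 and C1s2 at chr6:124624625-124636085. C1rb took 1.73% to 3.27% of the C1r TPM and C1s2 4.43% to 5.62% of the C1s TPM in every tumor, so nearly all of the signal was assigned to C1ra and C1s1. The longest transcripts of C1ra and C1rb shared 26.3% of their 150-base windows and those of C1s1 and C1s2 2.86%, stretches in which a read of that length matches both copies.

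C4b (ENSMUSG00000073418) encodes C4, the substrate of C1s, and lies at chr17:34728380-34743882 on the minus strand. It had 155.2, 120.8, 99.3, 119.6, and 84.5 CPM in control IgG tumors, 476.8, 261.0, 352.8, 355.0, and 241.5 CPM in responders, and 170.4, 116.7, 168.1, and 82.7 CPM in non-responders. The lowest responder, 35L, was above the highest non-responder, 29L. C4b was 2.51-fold higher in responders than in non-responders (log2 fold change 1.33, SE 0.25, adjusted p = 0.00962) and 2.91-fold higher than in control IgG tumors (1.54, SE 0.23, adjusted p = 0.00128), both by edgeR. Its near copy C4a, at chr17:34809092-34823464, was 95.9% identical to C4b in its longest transcript, shared 8.26% of 150-base windows with it, and had a TPM 18.0 to 37.6 times lower. The annotation gives C4a only processed transcripts, and the split of reads between the copies is uncertain.

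C3 (ENSMUSG00000024164) is the central component on which all pathways converge, and it lies at chr17:57203970-57228136 on the minus strand. It had 139.6, 109.3, 71.5, 78.2, and 43.9 CPM in control IgG tumors, 431.5, 277.8, 348.8, 262.9, and 226.5 CPM in responders, and 108.0, 63.9, 107.9, and 56.8 CPM in non-responders. All 5 responders exceeded the highest other tumor, control 14L. C3 had the largest change of the 9 genes, 3.68-fold against non-responders (log2 fold change 1.88, SE 0.32, 95% interval 1.20 to 2.55, adjusted p = 0.00666) and 3.5-fold against control IgG tumors (1.81, SE 0.29, adjusted p = 0.00189), both by edgeR. C3 also varied most among control IgG tumors, with a coefficient of variation of 41.6%, against 8.33% for C1qc.

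Factor B, the protease of the alternative pathway convertase, is encoded by Cfb (ENSMUSG00000090231) at chr17:34856374-34862518 on the minus strand, in the same region of chromosome 17 as C4b and C4a. Cfb had 127.5, 145.7, 86.9, 116.5, and 77.3 CPM in control IgG tumors, 412.1, 214.5, 334.3, 330.6, and 212.8 CPM in responders, and 134.0, 143.1, 125.5, and 150.0 CPM in non-responders. The non-responders lay close together (coefficient of variation 7.74%) and the responders were spread (28.6%), with 35L and 26R at the low end and 24L the highest. Cfb was 2.18-fold higher in responders than in non-responders (log2 fold change 1.12, SE 0.21, adjusted p = 0.0102) and 2.72-fold higher than in control IgG tumors (1.44, SE 0.20, adjusted p = 0.000966), both by edgeR.

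The C3a receptor is encoded by C3ar1 (ENSMUSG00000040552) at chr6:122847138-122856161 on the minus strand and is carried by myeloid cells. It had 92.7, 103.7, 73.4, 96.7, and 79.0 CPM in control IgG tumors, 125.4, 110.5, 109.5, 122.0, and 99.3 CPM in responders, and 91.5, 102.2, 99.8, and 85.8 CPM in non-responders. Responder 35L lay within the ranges of both other groups, and the other 4 responders lay above them. C3ar1 was 1.27-fold higher in responders than in control IgG tumors (log2 fold change 0.35, SE 0.10, adjusted p = 0.0343), and against non-responders the log2 fold change was 0.26 (SE 0.11, adjusted p = 0.132), both by edgeR. The call against control IgG tumors was lost with the gene length offset (0.24, adjusted p = 0.161) and without 16R, 20R, 24L, 26R, 30L, or 30R, and it held in 8 of 14 fits that left out a tumor. Against non-responders C3ar1 passed in 1 of 8 alternatives, on log2(TPM + 1) with limma (0.49, adjusted p = 0.0354). Relative to the median of all genes on that scale it differed by 0.33. With the gene length offset the value was 0.11 (adjusted p = 0.629 by edgeR).

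Non-responders and control IgG tumors were not separated by any of the 9 genes. Cfb and C4b had the largest log2 differences, 0.32 (SE 0.21) and 0.22 (SE 0.24), each with an adjusted p of 0.931 by edgeR. The others lay between -0.07 for C3 (SE 0.30, adjusted p = 0.972) and 0.09 for C3ar1 (SE 0.11, adjusted p = 0.931). A p above the threshold does not show that the groups are alike, and the standard errors of C3, C4b, and C1s1 were the widest.

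The sequence before the transcription start is shown for 3 genes to set C3 and C1s1, both of the group that rose, beside C1qc, which did not pass. RefSeq windows (GRCm38.p6) of 250 bases before the start were given for 6 of the 9 genes (C1qb, C1qc, C1ra, C1s1, C3, and C3ar1), and a sequence is printed only as far as it does not run into a GENCODE gene. The motifs searched on both strands, which can overlap, were TTCNNNGAA (the gamma interferon activated site), GAAA followed after 2 bases by GAAA (the interferon stimulated response element), GAGGAAGT (PU.1), TTGCNNAA (C/EBP), and GGGNNNTCC (NF-kB), and 7.02%, 2.98%, 2.44%, 9.56%, and 15.2% of 32851 windows of this kind held them. Capitals mark the matches, and all sequences run 5′ to 3′ on the gene's strand. The C3 window is chr17:57228137-57228386, with C/EBP letters from -45 and NF-kB letters from -33. The C1s1 window is chr6:124542360-124542609, with C/EBP letters of the other strand from -242. The C1qc stretch is chr4:136893066-136893164, with PU.1 letters of the other strand from -195.
C3: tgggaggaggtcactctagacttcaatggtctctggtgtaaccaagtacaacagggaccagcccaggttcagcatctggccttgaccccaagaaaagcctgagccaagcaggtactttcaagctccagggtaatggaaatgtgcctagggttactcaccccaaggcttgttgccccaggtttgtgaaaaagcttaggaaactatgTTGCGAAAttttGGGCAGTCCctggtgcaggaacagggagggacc
C1s1: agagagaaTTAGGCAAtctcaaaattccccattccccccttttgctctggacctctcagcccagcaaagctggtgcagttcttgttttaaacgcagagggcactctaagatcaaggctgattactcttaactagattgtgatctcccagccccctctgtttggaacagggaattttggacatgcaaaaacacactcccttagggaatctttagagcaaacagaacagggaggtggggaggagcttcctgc
C1qc: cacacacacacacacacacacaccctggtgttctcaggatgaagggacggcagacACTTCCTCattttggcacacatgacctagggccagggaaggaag
C1qc held also an NF-kB match from -40, which is not shown because it lies within the annotated gene. The windows of C1qb, C1ra, and C3ar1 and a further window of C1s1 (chr6:124542322-124542571) held none of these letters. No window of the 6 genes held the letters of either interferon motif. Of the 250 bases, 216 in the C1ra window and 151 in the C1qc window lie within the annotated gene, so little sequence before those genes was searched. A match is a description of letters in this window and says nothing of binding.

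Ratios within a tumor set the genes beside each other without the library total. The shares of the C1q chains in their summed TPM were nearly fixed, at 35.2% to 41.7% for C1qa, 33.1% to 35.9% for C1qb, and 24.4% to 29.5% for C1qc, with 33R at both 41.7% and 24.4%. The ratio of C1ra to C1s1 TPM was also narrow, from 0.687 to 0.85 over the 14 tumors. The recognition chains and their proteases did not keep a fixed ratio. The mean C1q chain was 5.98 to 12.5 times the mean of C1ra and C1s1 in control IgG tumors and 6.39 to 12.4 times in non-responders, and 3.43 to 5.29 times in responders, which did not overlap with either group. C3 over C1qa was 0.0265 to 0.0768 in control IgG tumors, 0.0218 to 0.0642 in non-responders, and 0.114 to 0.178 in responders, again without overlap. Cfb over C3 overlapped between the groups, at 1.77 to 3.32, 2.37 to 5.37, and 1.49 to 2.42 in the same order. These ratios are descriptions and were not tested.

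**Figure D2:**
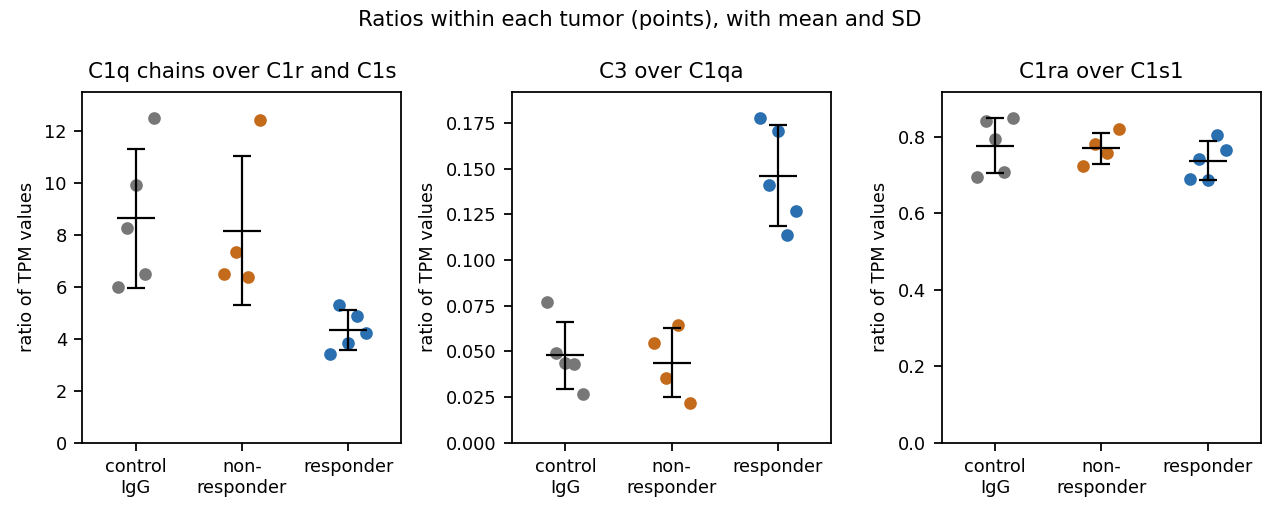
Ratios of TPM values within each tumor (points; vertical axes from 0) with the mean and SD of each group, for the mean C1q chain over the mean of C1ra and C1s1, C3 over C1qa, and C1ra over C1s1. Responders lie at 3.43 to 5.29 in the first panel and at 0.114 to 0.178 in the second, apart from the other groups, and overlap with them in the third, where all tumors lie between 0.687 and 0.85.

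Pairs of the 9 genes differed in how closely they varied together over the 14 tumors. These correlations of log2 CPM share libraries and groups and are given without a test, together with the value after group means were removed. C1ra and C1s1 had r = 0.99 (0.98 with group means removed), and C3 and C4b had 0.97 (0.88). C1qa and C1qb had 0.92 (0.92), and C1qb and C1qc 0.91 (0.86). C1qa and C3 had 0.42 (0.07), and C1qa and C4b 0.36 (-0.08). Without the 2 tumors farthest from the median of C1qa, these last values were 0.62 and 0.57 before group means were removed, so that they rest partly on single tumors. Cfb had 0.93 with C1ra (0.75) and 0.63 with C1qa (0.60), and C1qc had 0.77 with C1ra (0.57).

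**Figure D3:**
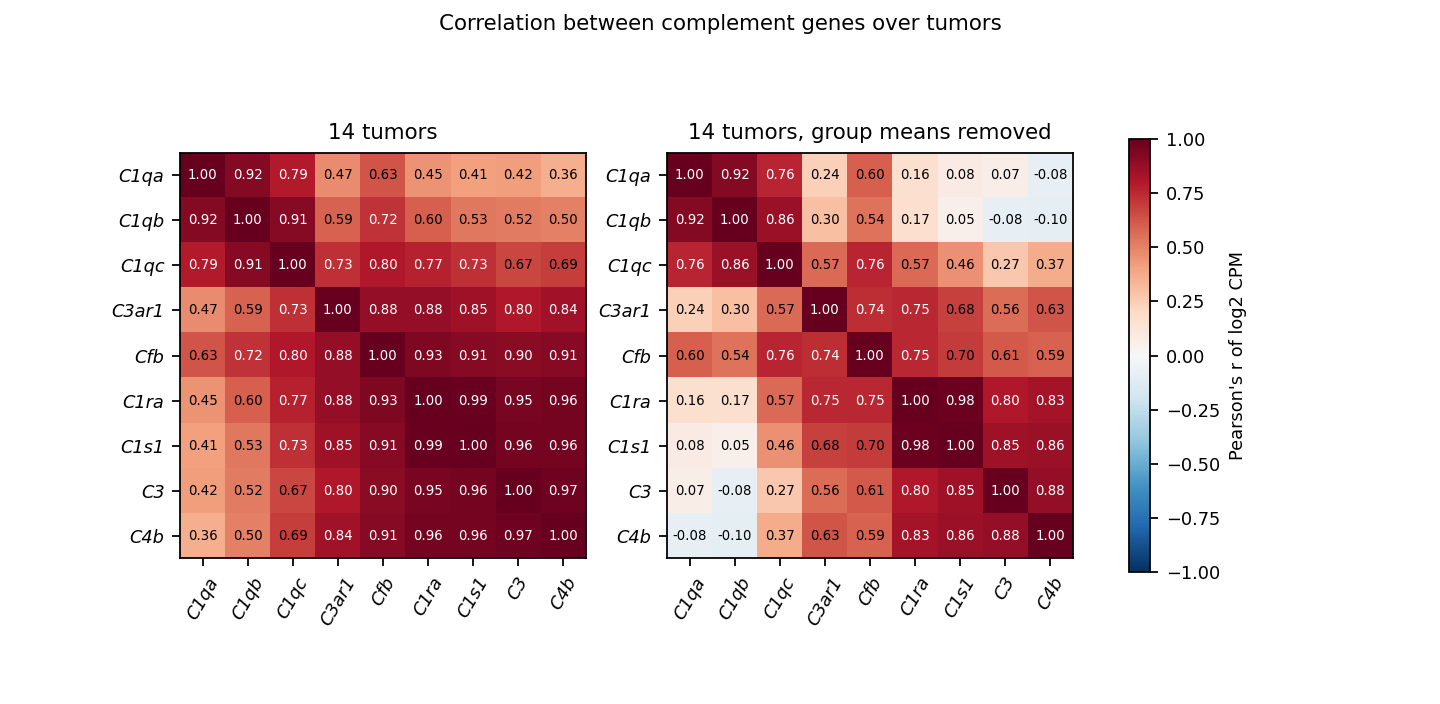
Pearson's r of log2 CPM between the 9 complement genes over 14 tumors, before (left) and after (right) group means were removed (color scale -1 to 1). C1qa and C1qb form a block at 0.92 in both panels, and the values between C1qa and C3 or C4b move from 0.42 and 0.36 to 0.07 and -0.08.

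The genes most like each of 6 complement genes were listed among 12195 genes with a mean log2 CPM of at least 1, by r over the 14 tumors. For C1qa they were Tyrobp and Ly86 (both 0.93), Hmox2 (0.92), Cybc1, and Snx20 (both 0.91), with 0.88 to 0.94 when group means were removed, of which Tyrobp and Ly86 encode an adaptor and a surface protein of myeloid cells. For C1ra they were C1s2 (0.99), Cd74, the class II invariant chain (0.98), Acvrl1, Chga (both 0.98), and Nod1 (0.97). For C3 they were Dnase1l3 (0.97), Il18r1, Gpr132, Fam78a (each 0.96), and Ptprc, which encodes CD45 (0.95), with 0.77 to 0.86 when group means were removed. For C4b they were Rin3 (0.99), Akna, Nod1 (both 0.98), Cybb, and Ubash3b (both 0.97). For Cfb they were Ly6a, Ly6c1, Themis2 (each 0.98), Rinl, and Slc11a1 (both 0.97). For C3ar1 they were Timd4 (0.94), Trim14, Gbp7, and Hk3 (each 0.92), among others.

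Of 50 other complement genes, also listed with earlier results known, 30 had enough counts to be tested. Of these, 11 were higher and 1 lower in responders than in non-responders, with a median log2 fold change of 0.42. Of all genes tested, 5.08% were higher and 4.82% lower. Without responder 24L, or without non-responder 32R, 6 passed (C1rb, C1rl, Clu, Itgb2, and Masp1 higher and Vsig4 lower). Calls over all genes also fell, from 1612 to 569 without 24L and to 615 without 32R. Against control IgG tumors 12 were higher and 0 lower (median 0.44), where 7.88% of all genes were higher and 5.3% lower. Between non-responders and control IgG tumors 0 passed (median 0.02), as did 0% of all genes. In the initiation of the classical and lectin pathways, 6 of 8 tested genes were higher than in non-responders. These were C1rb (log2 fold change 1.48), C1s2 (1.21), C1rl, a C1r-like protease (0.95), C2, which C1s cleaves (0.96), C4a (1.26), and Masp1, a protease of the lectin pathway (0.76), with adjusted p from 0.00666 for C1rl to 0.0423 for C2 by edgeR. The same 6 were higher than in control IgG tumors, although C1rb, the least abundant of them, passed there in only 6 of 14 fits that left out a tumor. Fcna, a lectin pathway recognition protein, had means of 31.3 CPM in responders and of 32.9 CPM in non-responders (adjusted p = 0.751 by edgeR).

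In the alternative pathway, Cfp, which encodes properdin, the stabilizer of its convertase, was higher in responders than in control IgG tumors (log2 fold change 0.49, adjusted p = 0.0204 by edgeR), and Cfd, factor D, did not pass in any comparison. Of the terminal pathway, 3 of 7 genes were tested, and C6, a component of the membrane attack complex, was higher than in non-responders (1.13, adjusted p = 0.0257) and than in control IgG tumors (1.12, adjusted p = 0.0131), both by edgeR. C7, C8a, C8b, and C9 had too few counts to be tested. The other genes left out for low counts included Cfi, C4bp, Mbl1, Mbl2, and Cr2.

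Of 5 soluble regulators tested, 2 were higher than in non-responders. Clu, which encodes clusterin, was higher than in non-responders (log2 fold change 0.94, adjusted p = 0.0137) and than in control IgG tumors (1.02, adjusted p = 0.00304), both by edgeR. Serping1, the C1 inhibitor that inactivates C1r and C1s, was higher than in non-responders (0.68, adjusted p = 0.0443) and than in control IgG tumors (0.86, adjusted p = 0.00907), both by edgeR. Membrane regulators did not pass with edgeR in any comparison. All 4 that were tested, Cd46, Cd55, Cd59a, and Cr1l, which protect cells from deposited C3b and C4b or from the membrane attack complex, had log2 fold changes below 0 against non-responders (median -0.54). The median of all genes was 0.006. Cd46 was low, with a mean of 0.203 TPM. Non-responder 33R had the highest Cd55 (23.7 CPM), Cd59a (4.88 CPM), and Cr1l (105.1 CPM) of the 14 tumors. Cr1l, at -0.25, was lower in responders with 2 of 8 alternatives, DESeq2 and limma-voom (lowest adjusted p = 0.0364), Cd46 passed in 1 of 14 fits that left out a tumor, and the value of Cd59a turned to 0.16 in such a fit.

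Of the other receptors, Itgb2, the shared chain of complement receptors 3 and 4, exceeded non-responders in the responders (log2 fold change 0.74, adjusted p = 0.0166) and than in control IgG tumors (0.96, adjusted p = 0.00189), and Itgax, the alpha chain of complement receptor 4, was higher than in non-responders (0.92, adjusted p = 0.0369), by edgeR. Vsig4, a macrophage receptor for C3b that inhibits the alternative pathway convertase, was the 1 complement gene called lower in responders with edgeR. It had 1.90, 2.68, 2.64, 1.71, and 1.48 CPM in responders 24L, 26R, 30L, 30R, and 35L and 3.81, 2.99, 5.98, and 5.42 CPM in non-responders 29L, 32R, 33L, and 33R. These ranges did not overlap, and control IgG tumors (1.85, 2.78, 2.18, 2.41, and 2.81 CPM) lay with the responders. The log2 fold change against non-responders was -1.13 (SE 0.24, adjusted p = 0.0137 by edgeR).

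Markers of the cell types a tumor could hold were set beside these results, where some lists rose in responders and others did not. Their part in the results was not tested. Of 7 T cell markers, 6 were higher than in non-responders, and their summed level was 37.6 to 75.7 CPM in responders, 21.2 to 27.0 CPM in non-responders, and 17.0 to 39.9 CPM in control IgG tumors. Of 10 interferon gamma response genes, 6 were higher than in non-responders, Ciita by 2.16 on the log2 scale (adjusted p = 0.0102 by edgeR), and the sums were 1260 to 2636 CPM, 873.7 to 1029 CPM, and 567.7 to 1273 CPM in the same order. Responder 24L had the highest sum of both lists and the highest C1ra, C1s1, C4b, C3, and Cfb. Against control IgG tumors, 7 of 7 T cell markers and 7 of 10 interferon gamma response genes were higher in responders, as were 3 of 10 fibroblast markers (Col1a1, Col1a2, and Postn) and 1 of 11 macrophage markers (Adgre1), while Dcn of the fibroblast list, Cdx2 of the carcinoma epithelial list, and 3 of 5 erythroid markers were lower. Of 11 markers of macrophages, cells known to make C1q, 1 was higher (Adgre1, 0.51, adjusted p = 0.0132 by edgeR), and the sums of 3358 to 3974 CPM in responders and 2834 to 4120 CPM in non-responders overlapped, led by Lyz2 and Mrc1. The control IgG tumors lay below the responders at 2626 to 3141 CPM. On the TPM scale the macrophage sums did not overlap with either group, at 3158 to 4090 in responders, 2478 to 3112 in non-responders, and 2497 to 2696 in control IgG tumors. Of 10 fibroblast markers, 1 was higher (Col1a2, 0.47, adjusted p = 0.0475 by edgeR), with sums of 2960 to 4934 CPM and 2419 to 4452 CPM.

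Markers of hepatocytes, the main source of plasma complement, were at or near 0 in these libraries. The sum of 7 hepatocyte markers was at most 1.47 CPM in any tumor, and Alb, Apoa2, Ttr, Fga, and Ahsg were at 0 in at least 1 tumor. Erythroid markers were lower in responders than in non-responders for 5 of 5 genes, with sums of 59.3 to 282.7 CPM against 375.8 to 2066 CPM, and their part was not tested. Epidermis and skeletal muscle markers differed widely between tumors (7.37 to 971.8 CPM and 23.3 to 1182 CPM), and 0 of 8 and 0 of 6 passed between responders and non-responders. The carcinoma epithelial markers were low throughout, with sums of 11.4 to 49.9 CPM and a mean of 2.93 CPM for Epcam, and 0 of 6 passed in that comparison.

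**Figure D4:**
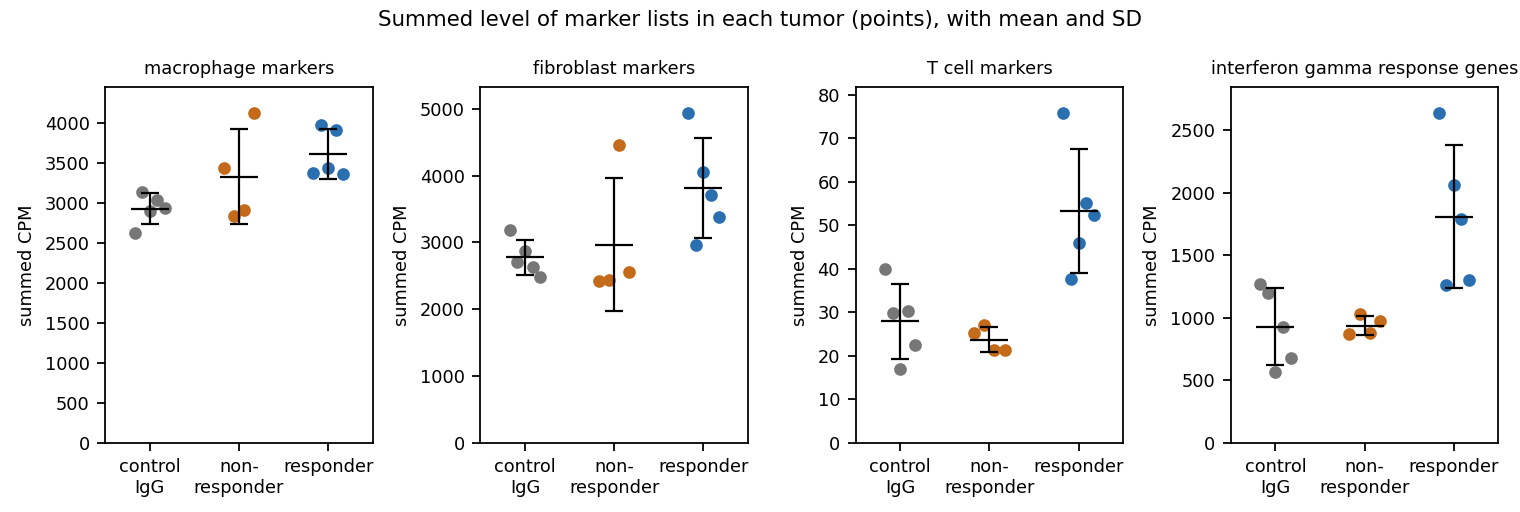
Summed CPM of the macrophage, fibroblast, T cell, and interferon gamma response lists in each tumor (points; vertical axes from 0), with the mean and SD of each group. Responders lie above every non-responder for the T cell list (37.6 to 75.7 against 21.2 to 27.0) and the interferon gamma list (1260 to 2636 against 873.7 to 1029), and overlap with non-responders in CPM for the macrophage and fibroblast lists.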

How the data were processed

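RNA-seq libraries of 14 whole tumors were used. The authors made poly(A)-selected libraries and sequenced read pairs, and for the cell lines of the same study their methods name alignment to mm10 by STAR and quantification by RSEM with default settings, to which the tumors refer. Expected counts, as the authors deposited them, carry no normalization and divide reads with several matches among genes. TPM, as deposited, are scaled by effective length and total. FPKM values were not used. Symbols and positions came from GENCODE M21 (53706 of 53801 identifiers matched).

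Rounded expected counts were tested with edgeR 4.0.16 in R 4.3.3 (TMM, filterByExpr, quasi-likelihood test, Benjamini-Hochberg adjustment over 16287 genes, threshold 0.05), with all 14 tumors in 1 fit of 3 groups without covariates. No tumors were merged, since within groups even the closest pair had a chi-square of 19.8 per gene. Left and right tumors of a mouse were counted as separate, and p-values measure the spread between tumors. Intervals have a confidence level of 95%. The prior count for log2 CPM was 2, and the pseudocount for TPM 1. The test was tested on simulated data. Alternatives used DESeq2 1.42.0 and limma 3.58.1.

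The members and all gene lists were chosen with earlier results of these data known. Genes named are the 9 members, every other listed complement gene called in any comparison, marker genes that were called or most abundant, and the 5 genes most like each of 6 members. Fcna, Cfd, the membrane regulators, and the genes named as not tested fall outside this rule and were named after their values were seen. Some results are not reported here.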

Additional observations from a re-analysis of the deposited data

Results flagged for a closer look

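In 2 of 27 groups of values, a single tumor stood far from the others of its group. C1qa in control IgG tumor 14R was 368.6 CPM, and the other control IgG tumors had 282.0 to 303.2 CPM (gap over range 0.754). C1qb in the same tumor was 353.5 CPM, against 279.5 to 297.9 CPM in the others (0.751). Chance marks about 1 group in 20, and the chains are not independent, since C1qa and C1qb had r = 0.92 over the 14 tumors. Without 14R the log2 fold change of C1qb between non-responders and control IgG tumors turned from -0.01 to 0.05, and neither value passed.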

How the results depend on the processing

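C1ra, C1s1, C4b, C3, and Cfb passed in both comparisons of responders under all 8 alternatives (DESeq2, its size factors in edgeR, no filter on low counts, only the groups compared, 1 library per mouse, limma-voom with mouse as a random effect, log2(TPM + 1), and a gene length offset) and in all 14 fits that left out a tumor, with log2 fold changes against non-responders of 0.94 to 1.13, 1.01 to 1.28, 1.17 to 1.46, 1.73 to 2.03, and 0.98 to 1.23 in the latter. The number of the 9 genes higher than in non-responders was 5 to 9 over the alternatives and stayed at 5 when any tumor was left out. The 9 came on log2(TPM + 1), where the median of all genes shifted by 0.169. On that scale 1969 of the 16287 genes tested were higher in responders than in non-responders and 191 lower, so the calls leaned to one side over all genes. Against control IgG tumors it was 5 to 6 when a tumor was left out. The number of other complement genes called was 6 to 15 against non-responders when a tumor was left out (6 without 24L and 6 without 32R) and 9 to 14 against control IgG tumors. Over all genes, calls against non-responders fell from 1612 to 569 without 24L and to 615 without 32R. Against non-responders Vsig4 passed in all of these fits, as did Clu, C1rl, Itgb2, and Masp1 when any tumor was left out, while Serping1 passed against non-responders in 6 of those 14 fits, C2 in 7, and Itgax in 8.

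For the 9 genes, the direction turned only between non-responders and control IgG tumors, where no value passed. There C1qa was -0.08 on log2(TPM + 1) and -0.05 with the gene length offset, C1ra -0.04 and C3ar1 -0.02 on log2(TPM + 1), C1s1 -0.02 with limma-voom and -0.03 on log2(TPM + 1), and C3 0.11 with 1 library per mouse. When a tumor was left out, C1qa ranged from -0.11 to 0.11, C1qb from -0.11 to 0.05, C1ra from -0.07 to 0.14, C1s1 from -0.13 to 0.15, and C3 from -0.24 to 0.15. Among the other complement genes named, Cd59a (-0.62 to 0.16 when a tumor was left out) and Cfd (-0.74 to 0.43) also turned between responders and non-responders, as did Fcna over the alternatives (-0.08 to 0.16), and none of these passed. The cause of these turns was not tested. No paired analysis was possible because the groups share no mouse. The within-mouse correlation in limma-voom was -0.282. Depth did not limit the 9 genes, whereas 20 other complement genes had too few counts to be tested.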
